A study of Homo sapiens with 6 samples.

Results

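The genes described here are 10 core genes of transforming growth factor β (TGF-β) signalling: the ligand gene TGFB1, the receptor genes TGFBR1 and TGFBR2, the signal transducers SMAD2, SMAD3 and SMAD4, the inhibitory SMAD7, the corepressors SKI and SKIL, and TGFBI, a gene induced by the ligand. They were chosen by name for their place in the pathway, with earlier results of these data known. All 10 were among the 33981 genes of the table and among the 19182 genes tested. The samples were THP-1 cells, a monocytic line from an acute myeloid leukemia, carrying a lentiviral vector with GFP and either a scrambled shRNA (scrambled control, 3 samples) or an shRNA against NFIC (NFIC KD, 3 samples). GFP-positive cells of both groups were sorted 4 days after infection, and bulk RNA was sequenced. NFIC encodes a transcription factor of the nuclear factor I family. The labels name the control vector scrambled, whereas the study's methods call it GFP only. The comparison rests on 1 cell line and, by the study's account, 1 shRNA (sh494), and no source used here says that the 3 samples of a group came from separate cultures, so the p-values measure the spread between these samples, which may be technical.

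TGF-β1 is secreted in a latent complex and, once released, binds a type II receptor that recruits and phosphorylates a type I receptor. The type I receptor phosphorylates SMAD2 and SMAD3, which join SMAD4 and enter the nucleus to regulate target genes together with other transcription factors. SMAD7 is itself a target and shuts the receptor down, while SKI and SKIL (SnoN) hold SMAD complexes in a repressed state. In monocytes and macrophages the pathway is known for restraining growth and inflammation and for shaping differentiation. The comparison addressed whether the RNA levels of these parts of the pathway differed when NFIC was knocked down.

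All 10 genes passed the test, 6 higher and 4 lower in NFIC KD. TGFBI rose 1.69-fold, SMAD7 1.53-fold, TGFB1 1.28-fold, TGFBR1 1.27-fold, TGFBR2 1.19-fold and SKI 1.12-fold, whereas SMAD3 fell to 64.6%, SMAD2 to 76.6%, SMAD4 to 84.7% and SKIL to 87.4% of the scrambled control. The ligand and both receptors were thus higher, and the 3 SMADs that carry the signal were lower. Changes were common in this comparison: 59.9% of all genes tested passed an adjusted p of 0.05 in edgeR's quasi-likelihood test, 29.6% higher and 30.3% lower, and the groups did not overlap in CPM (counts scaled to library size, with TMM factors) for 65.2% of genes and for all 10 of these. The median absolute log2 fold change was 0.35 over the 10 genes and 0.37 over all genes tested. In bulk RNA, fewer cells of a type and less RNA per cell cannot be told apart.

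**Figure D1:**
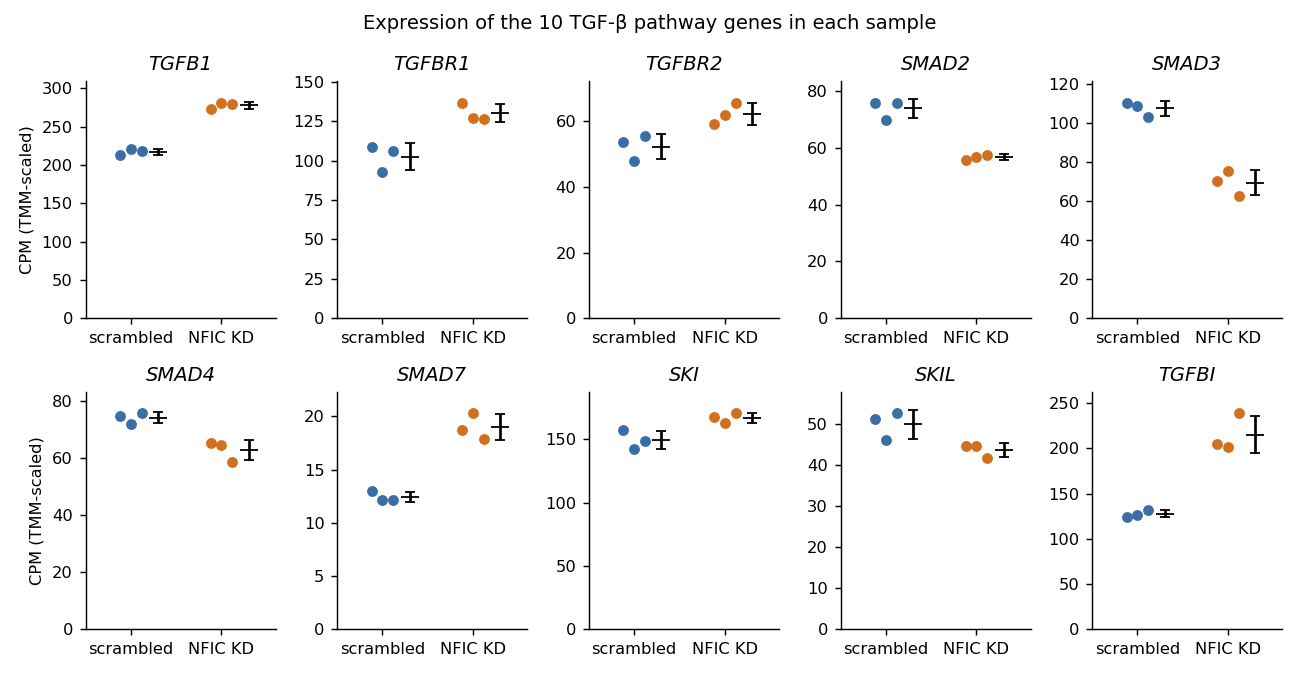
CPM (vertical axes, each from 0) of each of the 10 genes in the 3 scrambled control and 3 NFIC KD samples, with the mean and SD beside the points. The groups do not overlap for any gene, with the widest gap in TGFBI, where the scrambled control reached 132 CPM and NFIC KD began at 202 CPM.

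Depth was even, between 20369543 and 24809720 counts a sample, at which 3 counts, taken as the smallest detectable amount, equal 0.121 to 0.147 CPM (counting error only, as the reads carried no molecular identifiers). NFIC itself had 911, 1019 and 904 counts in the scrambled control and 399, 518 and 493 in NFIC KD. Its level was thus 50.2% of the control (log2 fold change -0.99, SE 0.072, edgeR adjusted p = 3.73e-09), so the knockdown was partial. The 12 myeloid genes used to check the cell type all passed the filter on low counts, with a summed level of 3781 to 4107 CPM in the scrambled control and 3160 to 3215 CPM in NFIC KD. Of these, 5 rose (CEBPB, LYZ, TYROBP, FCER1G and LYN) and 6 fell (CEBPA, CD33, CD4, MPO, ITGB2 and CSF1R). That is 91.7% called, against 59.9% of all genes tested. The lower sum followed ITGB2, which went from 1405 to 500 CPM, while LYZ went from 572 to 940 CPM. The 1 T cell gene and the 3 erythroid genes in the table had at most 3 counts in any sample, and summed B cell genes (23.1 to 25.1 and 16.3 to 17.9 CPM) and megakaryocyte genes (11.3 to 13.8 and 6.98 to 7.93 CPM) were low in both groups.

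The sequences before the transcription start are shown for the gene that rose most, the transducer that fell most and the inhibitory SMAD, because SMAD and NFI proteins act through such DNA. RefSeq windows on GRCh38.p14 were matched by symbol for 9 of the 10 genes (not SKI), and where a gene had several, the one at the start of its canonical transcript was used. The 250 bases before the start, read 5′ to 3′ on the gene's own strand, lie at chr5:136028738-136028987 (plus strand) for TGFBI, at chr15:67065352-67065601 (plus strand) for SMAD3 and at chr18:48950966-48951215 (minus strand) for SMAD7. Capitals mark the GC box of SP factors in TGFBI and the short SMAD motif in SMAD7, and SMAD3 has neither in these 250 bases.
TGFBI: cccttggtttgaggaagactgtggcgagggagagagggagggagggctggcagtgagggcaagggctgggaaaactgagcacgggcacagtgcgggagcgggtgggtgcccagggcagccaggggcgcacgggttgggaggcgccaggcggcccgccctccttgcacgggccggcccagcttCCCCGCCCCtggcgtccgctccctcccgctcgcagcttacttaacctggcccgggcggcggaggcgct
SMAD3: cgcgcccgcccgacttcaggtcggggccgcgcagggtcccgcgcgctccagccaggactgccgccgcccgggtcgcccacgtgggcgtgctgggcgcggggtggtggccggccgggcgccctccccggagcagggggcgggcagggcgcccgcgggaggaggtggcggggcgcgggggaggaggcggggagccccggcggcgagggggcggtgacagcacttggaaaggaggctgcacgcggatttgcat
SMAD7: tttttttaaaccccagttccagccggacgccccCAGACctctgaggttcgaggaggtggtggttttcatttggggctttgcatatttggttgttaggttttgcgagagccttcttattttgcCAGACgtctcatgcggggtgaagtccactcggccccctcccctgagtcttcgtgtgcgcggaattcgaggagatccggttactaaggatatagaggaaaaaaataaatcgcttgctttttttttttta

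These windows differ in base composition, with 80.8% G and C in SMAD3, 72.8% in TGFBI and 48.0% in SMAD7, against a median of 58.0% over all windows. Both strands were searched, from 250 bases before to 50 after the start. The SMAD palindrome GTCTAGAC was in none of the 9 windows and in 0.202% of all 35116. The short SMAD motif (GTCTG or CAGAC, neither of which lies within the palindrome) was in 4 of 9 and in 45.3% of all. The 4 were those of TGFBR1, SMAD3, SMAD7 and SKIL. SMAD7 held it at 2 places, beginning 217 and 128 bases before the start. The palindrome bound by NFI factors, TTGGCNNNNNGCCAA, was in none of the 9 and in 0.028% of all, and its shorter form (TTGGCA or TGCCAA) was in those of TGFBR1, TGFBR2 and SMAD4 and in 12.5% of all. The GC box (GGGGCGGGG) was found in TGFBI and in 15.7% of all windows, and the AP-1 motif TGAGTCA in TGFBR2 and in 4.95%. A match describes letters and is not a bound site.

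TGFB1 (ENSG00000105329, chr19:41301587-41353922, minus strand, GRCh38), the gene of the ligand, had 213, 220.5 and 218 CPM in scrambled replicates 1, 2 and 3 and 273, 281 and 279.5 CPM in NFIC KD replicates 1, 2 and 3. Every NFIC KD sample was above every scrambled sample, and the samples of a group lay close together. Its mean went from 217 ± 3.90 to 278 ± 4.39 CPM (SD, n = 3), a log2 fold change of 0.36 (95% CI 0.26 to 0.46, edgeR adjusted p = 4.25e-06). Of all genes tested, called or not, 51.5% had a larger absolute log2 fold change. TGFB1 shares 215 exon bases with HNRNPUL1 on the opposite strand, which was also higher (log2 fold change 0.28, edgeR adjusted p = 1.65e-04), and no strand setting is stated, so reads from the shared bases cannot be told apart.

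TGFBR1 (ENSG00000106799, chr9:99104038-99154192, plus strand), the type I receptor kinase, had 108, 92.6 and 106 CPM in the scrambled replicates and 137, 127 and 126 CPM in the NFIC KD replicates. Scrambled replicate 2 was the lowest, and the groups did not overlap. The mean rose from 102 ± 8.62 to 130.2 ± 5.84 CPM (SD, n = 3), a log2 fold change of 0.35 (95% CI 0.22 to 0.48, edgeR adjusted p = 1.23e-04). TGFBR2 (ENSG00000163513, chr3:30606601-30694142, plus strand), the ligand-binding type II receptor, had 53.6, 47.9 and 55.4 CPM against 59.0, 61.8 and 65.7 CPM. The gap between the groups was narrow, from 55.4 to 59.0 CPM. Its log2 fold change was 0.25 (95% CI 0.11 to 0.39, edgeR adjusted p = 0.00358), from a mean of 52.3 ± 3.88 to 62.2 ± 3.35 CPM (SD, n = 3).

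The type I and type II receptors work as a complex, so their ratio was compared within each sample. The log2 ratio of TGFBR1 over TGFBR2 in FPKM (fragments scaled to gene length and sequencing depth) was 1.02, 0.95 and 0.95 in the scrambled control and 1.22, 1.05 and 0.95 in NFIC KD. The groups overlapped, and the difference of 0.10 on the log2 scale was smaller than the spread in NFIC KD (exact two-sided permutation test, p = 0.3, 0.3 adjusted over 3 ratios, where 0.1 is the smallest p that 3 against 3 allows). A difference in the receptor ratio was therefore not shown.

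SMAD3 (ENSG00000166949, chr15:67063763-67195173, plus strand), a DNA-binding transducer phosphorylated by the type I receptor, had 111, 109 and 103 CPM in the scrambled replicates and 70.4, 75.5 and 62.5 CPM in the NFIC KD replicates. The groups were far apart. The mean fell from 108 ± 3.70 to 69.5 ± 6.52 CPM (SD, n = 3), a log2 fold change of -0.63 (95% CI -0.77 to -0.49, edgeR adjusted p = 2.33e-07). An antisense gene that shares 182 exon bases with SMAD3 had only 4 to 10 counts. SMAD2 (ENSG00000175387, chr18:47808957-47931146, minus strand), the other transducer activated by the receptor, had 76.0, 70.1 and 76.0 CPM against 55.6, 56.8 and 57.7 CPM. The 3 NFIC KD samples were close together and all lower. Its log2 fold change was -0.38 (95% CI -0.51 to -0.26, edgeR adjusted p = 1.90e-05), from a mean of 74.0 ± 3.45 to 56.7 ± 1.02 CPM (SD, n = 3).

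SMAD4 (ENSG00000141646, chr18:51028528-51085045, plus strand), the common partner of the activated SMADs, had 74.7, 71.9 and 75.6 CPM in the scrambled replicates and 65.1, 64.6 and 58.6 CPM in the NFIC KD replicates. All 3 NFIC KD samples were lower, with replicate 3 the lowest. The mean fell from 74.1 ± 1.93 to 62.8 ± 3.57 CPM (SD, n = 3), a log2 fold change of -0.24 (95% CI -0.36 to -0.11, edgeR adjusted p = 0.00205). SMAD4 shares 967 exon bases on the same strand with the gene ENSG00000267699, which had 444 to 539 counts and a log2 fold change of -0.09 that did not pass the test (edgeR adjusted p = 0.357). How the counting treated reads in the shared bases was not examined here.

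Within each sample, the log2 ratio of SMAD3 over SMAD2 in FPKM was 2.51, 2.60 and 2.41 in the scrambled control and 2.31, 2.37 and 2.08 in NFIC KD. The groups did not overlap, with SMAD3 lower relative to SMAD2 in every NFIC KD sample. The difference was -0.25 on the log2 scale, and its exact two-sided permutation p of 0.1 (0.15 adjusted over 3 ratios) is the smallest this design allows, so it does not pass 0.05. The size of the ratio rests on the lengths used, 9330 bases for SMAD3 and 36426 for SMAD2, but the difference between groups does not. Before division by length, the scrambled control had 108 CPM of SMAD3 and 74.0 CPM of SMAD2.

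**Figure D2:**
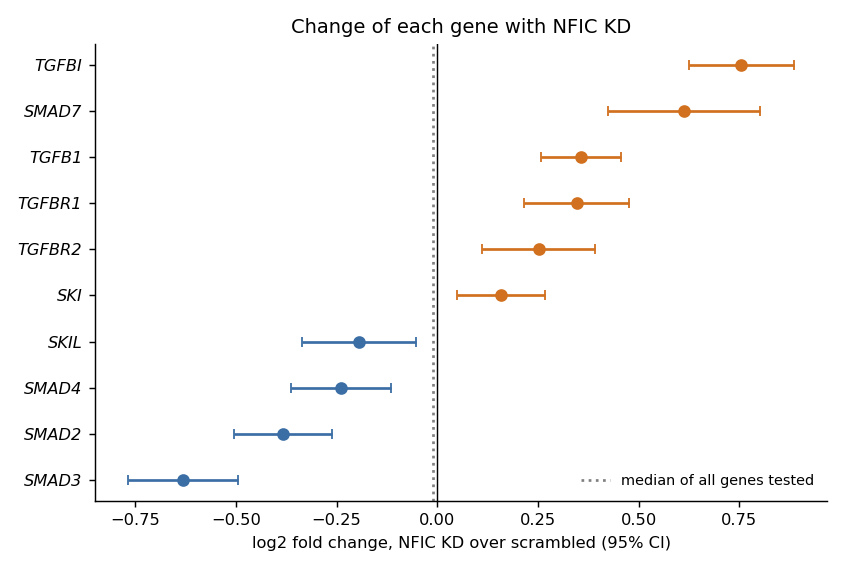
Log2 fold change of NFIC KD over the scrambled control (horizontal axis) with its 95% CI from edgeR for each of the 10 genes, and the median of all genes tested as a dotted line. The values run from 0.76 for TGFBI to -0.63 for SMAD3, and the intervals of SKI and SKIL come closest to 0.

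SMAD7 (ENSG00000101665, chr18:48919853-48950965, minus strand), which blocks the receptor and recruits ubiquitin ligases to it, had 13.0, 12.1 and 12.1 CPM in the scrambled replicates and 18.8, 20.3 and 17.9 CPM in the NFIC KD replicates. It was thus higher in each NFIC KD sample than in any scrambled sample. It had the fewest counts of the 10 genes, with 281, 299 and 259 against 387, 471 and 412. The mean rose from 12.4 ± 0.502 to 19.0 ± 1.23 CPM (SD, n = 3), a log2 fold change of 0.61 (95% CI 0.43 to 0.80, edgeR adjusted p = 1.36e-05).

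SKI (ENSG00000157933, chr1:2227388-2310213, plus strand) and SKIL (ENSG00000136603, chr3:170357342-170396835, plus strand) encode related corepressors that bind SMAD complexes, and they differed in direction. SKI had 157, 142 and 149 CPM in the scrambled replicates and 167, 163 and 171 CPM in the NFIC KD replicates, a log2 fold change of 0.16 (95% CI 0.05 to 0.27, edgeR adjusted p = 0.0135). SKIL had 51.4, 46.0 and 52.6 CPM against 44.8, 44.6 and 41.7 CPM, a log2 fold change of -0.19 (95% CI -0.34 to -0.05, edgeR adjusted p = 0.0191). These were the smallest changes of the 10. A larger absolute log2 fold change was estimated for 76.7% (SKI) and 71.8% (SKIL) of all genes tested, called or not. The edgeR call for SKI was lost without scrambled replicate 2 (0.12, adjusted p = 0.0703) or scrambled replicate 3 (0.15, adjusted p = 0.0551), and with upper-quartile scaling (0.10, adjusted p = 0.0949). That for SKIL was lost without scrambled replicate 1 (-0.18, edgeR adjusted p = 0.0647), scrambled replicate 3 (-0.16, adjusted p = 0.0952) or NFIC KD replicate 3 (-0.16, adjusted p = 0.0546), and in DESeq2 (-0.18, adjusted p = 0.0598). The direction of neither gene changed in any of these.

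In FPKM, the log2 ratio of SKIL over SKI was -1.86, -1.88 and -1.75 in the scrambled control and -2.15, -2.12 and -2.28 in NFIC KD. SKIL was lower relative to SKI in all 3 NFIC KD samples. The difference was -0.35 on the log2 scale, with the smallest exact two-sided permutation p that the design allows (p = 0.1, 0.15 adjusted over 3 ratios).

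**Figure D3:**
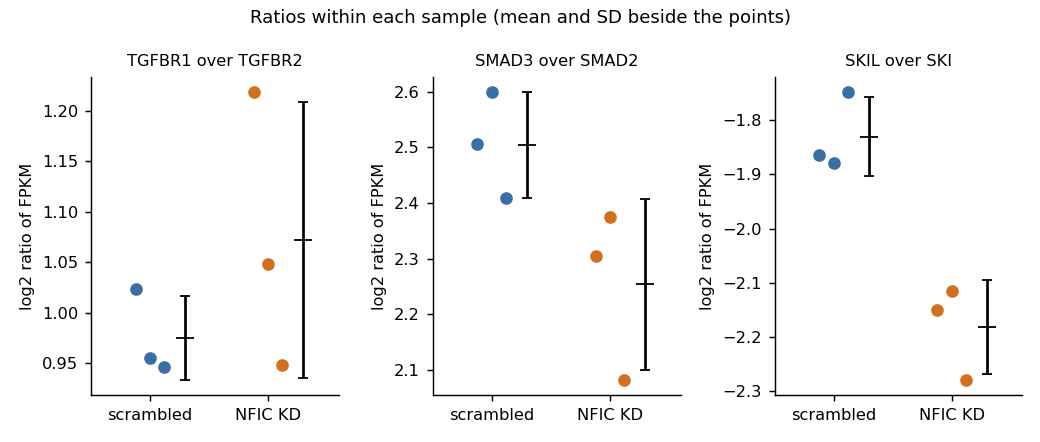
Log2 ratio of FPKM within each sample (vertical axes, each with its own range) for TGFBR1 over TGFBR2, SMAD3 over SMAD2 and SKIL over SKI, with the mean and SD beside the 3 points of each group. The receptor ratio overlaps between groups, whereas the SMAD and the corepressor ratio are lower in every NFIC KD sample, by 0.25 and 0.35 on average.

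TGFBI (ENSG00000120708, chr5:136028988-136063818, plus strand), an extracellular matrix protein first found as a gene induced by TGF-β, had 124, 126 and 132 CPM in the scrambled replicates and 205, 202 and 239 CPM in the NFIC KD replicates. NFIC KD replicate 3 was the highest, and the lowest NFIC KD sample was well above the highest scrambled one. The mean rose from 128 ± 3.97 to 215 ± 20.6 CPM (SD, n = 3), a log2 fold change of 0.76 (95% CI 0.62 to 0.89, edgeR adjusted p = 1.81e-08). A larger absolute log2 fold change was estimated for 21.0% of all genes tested, called or not. Genes of a list of 14 monocyte and macrophage genes went both ways. Of 11 tested, 5 rose (CD14, S100A8, S100A9, S100A12 and ITGAM), 2 fell (CD36 and CD68) and 4 did not pass the test. Thus 63.6% were called, near the 59.9% of all genes. The summed level of the list went from between 1105 and 1218 CPM to between 2148 and 2485 CPM, and most of that was S100A9, which went from 531 to 1649 CPM, while CD68 fell by 1.01 on the log2 scale. The macrophage genes CD163 and MRC1 had at most 8 counts. The part of these genes in the level of TGFBI was not tested.

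Levels of different genes can be compared only per length, for which the deposited FPKM values were used. In the scrambled control the order was TGFB1 (66.0 ± 1.33 FPKM, SD, n = 3), SKI (22.5 ± 1.08), TGFBI (16.3 ± 0.557), TGFBR1 (14.8 ± 1.24), SMAD3 (11.4 ± 0.359), TGFBR2 (7.54 ± 0.565), SKIL (6.35 ± 0.451), SMAD4 (5.57 ± 0.149), SMAD7 (2.44 ± 0.0915) and SMAD2 (2.01 ± 0.0934). No neighbours in this order overlapped in their 3 samples. In NFIC KD, TGFBI (27.9 ± 2.85 FPKM, SD, n = 3) and SKI (25.4 ± 0.726) overlapped, so their order is not set. TGFBR2 (9.07 ± 0.548 FPKM) was then above SMAD3 (7.43 ± 0.663 FPKM), the reverse of the scrambled control. The order also depends on the length used. The table gives TGFBI 7717 bases and its canonical transcript has 2712. With canonical lengths, an alternative chosen after the data were seen, TGFBI came before SKI and SMAD4 before SKIL in the scrambled control. SMAD3 (16.4 ± 0.518, SD, n = 3) was then above TGFBR1 (15.6 ± 1.30) in the mean only, within their spread. SMAD2 stayed last, but its 2 lengths are nearly alike (36426 and 34626 bases), so this could not test its place. Before division by length, SMAD2 had 74.0 CPM in the scrambled control and SMAD7 12.4 CPM, so the last place of SMAD2 rests on its length.

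**Figure D4:**
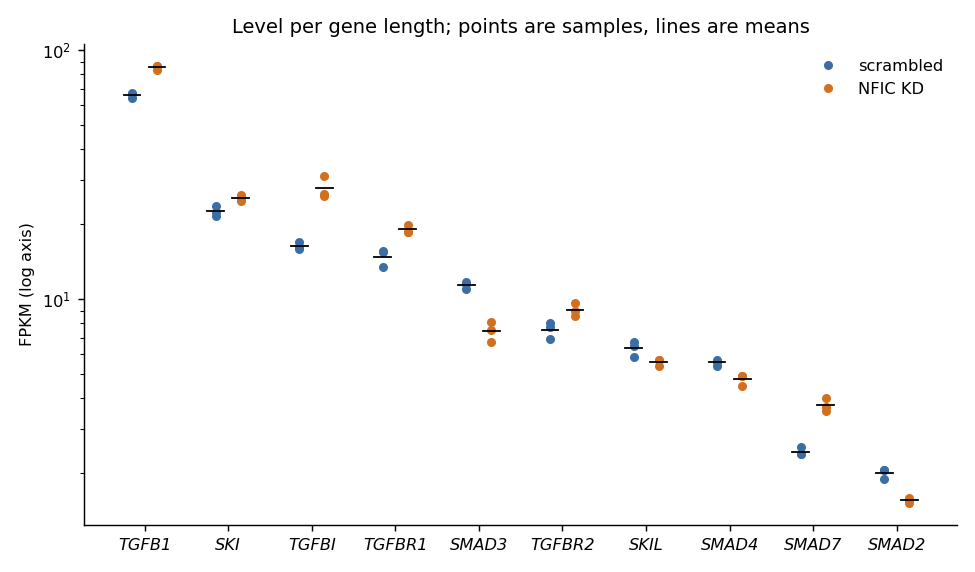
FPKM on a log axis for the 10 genes, ordered by their mean in the scrambled control, with 3 samples per group as points and the mean as a line. TGFB1 is highest at 66.0 FPKM in the scrambled control and 85.4 FPKM in NFIC KD, and SMAD2 is lowest at 2.01 and 1.55 FPKM.

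Further genes of the pathway were taken from 5 lists of 98 genes, of which 92 were in the table and 76 were tested. In NFIC KD 22 were higher and 27 lower, or 64.5% of those tested against 59.9% of all genes, and their median log2 fold change was -0.05 against -0.01 for all genes tested. Of 14 genes tested for ligands and the proteins that keep them latent or release them, 5 rose and 4 fell. That is 64.3% called, near the 59.9% of all genes tested. ITGAV, the integrin subunit that helps to release latent TGF-β1, rose from 81.0 to 163 CPM (log2 fold change 1.01, edgeR adjusted p = 1.62e-10). The activin subunit gene INHBB rose by 1.39 on the log2 scale from a low level of 1.48 CPM, and FURIN, which cleaves the TGF-β1 precursor, rose by 0.30. The ligand genes GDF11 (-0.64) and BMP2 (-0.53) fell, as did LTBP4 (-0.35), a latent TGF-β binding protein. The other TGF-β ligand genes were low, with TGFB2 at 14 to 25 counts (edgeR adjusted p = 0.668) and TGFB3 at 17 to 34 counts (adjusted p = 0.0575).

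Of 12 other receptors and coreceptors tested, 5 rose and 4 fell, or 75% called against 59.9% of all genes tested. CD109, a coreceptor that inhibits TGF-β signalling, rose from 27.1 ± 3.36 to 70.6 ± 11.6 CPM (SD, n = 3; log2 fold change 1.38, edgeR adjusted p = 1.40e-06). The activin receptor genes ACVR1B (0.31) and ACVR2B (0.32) also rose. Endoglin (ENG), a coreceptor, fell from 34.2 ± 1.71 to 18.3 ± 1.29 CPM (SD, n = 3; log2 fold change -0.90, edgeR adjusted p = 3.28e-08), with the coreceptor TGFBR3 (-0.50) and the type I receptor ACVRL1 (-0.38). Of the 3 other SMAD genes tested, SMAD5, a transducer of bone morphogenetic proteins, rose by 0.39 (edgeR adjusted p = 9.71e-05) and the other 2 did not pass the test.

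Of 25 SMAD regulators and partners, 7 rose, 7 fell and 11 did not pass the test, so 56% were called against 59.9% of all genes tested. The deubiquitinases USP15 (0.58) and USP9X (0.47), both known to act in this pathway, and FKBP1A (0.29), which holds the type I receptor inactive, rose. CREBBP, a coactivator of SMAD3, fell from 134 to 86.8 CPM (log2 fold change -0.63, edgeR adjusted p = 2.85e-08), and the ubiquitin ligase NEDD4L (-0.73) and the corepressor TGIF1 (-0.54) fell too.

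Of 22 other SMAD target genes tested, 4 rose and 12 fell, or 72.7% called against 59.9% of all genes tested. Their median log2 fold change was -0.32, against -0.01 for all genes tested, and opposite in sign to TGFBI and SMAD7. CDKN1A, an inhibitor of the cell cycle, rose from 49.3 to 92.2 CPM (log2 fold change 0.90, edgeR adjusted p = 1.46e-09), and JUNB (0.33) and SNAI1 (0.43) rose as well. The matrix protease gene MMP2 fell from 81.3 to 7.83 CPM (log2 fold change -3.37, SE 0.088, edgeR adjusted p = 1.93e-14), and TSC22D1 (-1.16) and the fibronectin gene FN1 (-1.37) fell. Summed levels of fibroblast genes (7.68 to 8.73 CPM in the scrambled control and 3.25 to 4.01 CPM in NFIC KD) and of epithelial genes (5.32 to 6.14 and 0.997 to 2.03 CPM) were low and also lower in NFIC KD, and COL1A1 is in both the target and the fibroblast list. Their part in the target genes was not tested.

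**Figure D5:**
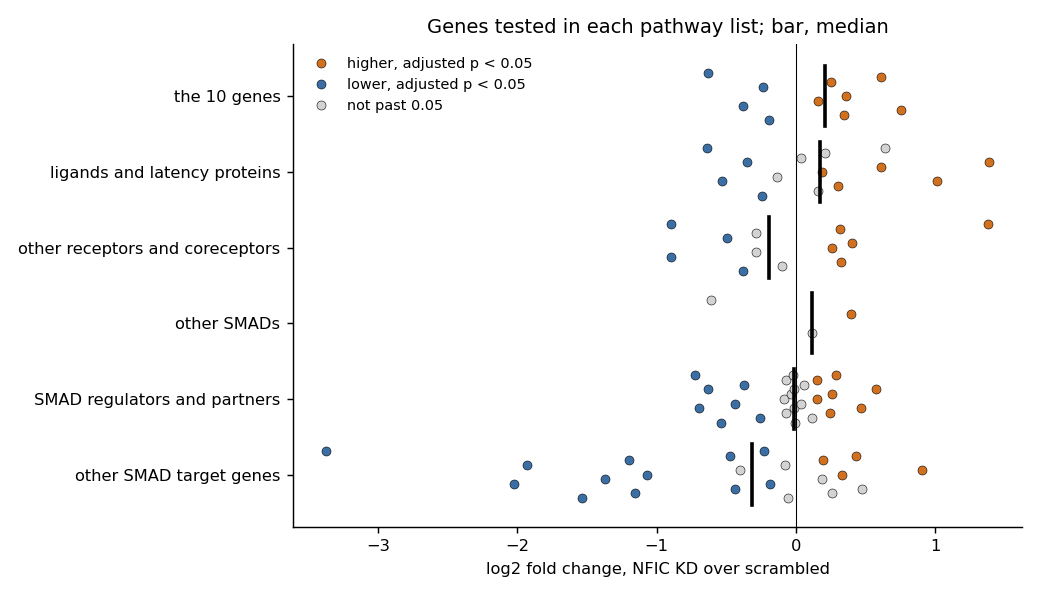
Log2 fold change of NFIC KD over the scrambled control (horizontal axis) for each gene tested in the 10 genes and in 5 lists of other pathway genes, coloured by whether it passed an edgeR adjusted p of 0.05, with a bar at each median. Medians lie at 0.21 for the 10 genes and at -0.32 for the other SMAD target genes, where MMP2 at -3.37 is the farthest point.

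Genes whose log2 CPM followed these genes most closely over the 6 samples were listed as a description among 11492 genes. They were SF3B4, PPP1R12A and CEP135 for TGFBI, EIF4G3, SGSH and TMCC1 for TGFB1, PRKAG2, BCL7A and AC069503.2 for TGFBR2, and SGSM3, NCKAP5L and PODXL2 for SMAD3. The likeness was Pearson's r, to which the difference between the groups contributes, as the 6 points form 2 groups. It was above 0.98 in 1096 genes for TGFBI, 869 for TGFB1, 657 for SMAD3 and 19 for TGFBR2. For the named genes, deviations from the group means also correlated, at 0.967 to 0.999. These genes were picked as the closest of 11492 over only 6 samples, so such values are a description.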

How the data were processed

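Bulk RNA of THP-1 cells with a scrambled shRNA (3 samples) or an NFIC shRNA (3 samples) was sequenced with paired ends. According to the methods, the authors trimmed reads with Trim Galore, mapped them to GRCh38 with STAR and counted them per gene with featureCounts; versions and the strand setting were not given in the sources used here. The deposited counts were not normalized. A normalized signal, the deposited count divided by a DESeq2 size factor, was not used for tests, and the deposited FPKM, made by the authors per gene length, served for levels and ratios only. The authors' columns of fold changes, scores and p-values were not used.

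The counts of 33981 genes were analysed with edgeR 4.0.16 in R 4.3.3 (TMM scaling, filterByExpr, robust quasi-likelihood test, no replicate block), with Benjamini-Hochberg adjustment over 19182 genes and a threshold of 0.05. The standard error is the log2 fold change divided by the root of F. Ratios of paired genes were compared with exact permutation tests. Gene positions and exons came from GENCODE release 44 on GRCh38, and promoter windows from RefSeq. No 2 samples of a group agreed within sampling noise. The members and lists were chosen with earlier results of these data known, as was the rule for named genes: all 10 genes, NFIC, up to 3 called genes in each direction per list with the smallest adjusted p (minimum average log2 CPM 1), the 3 genes most like TGFBI, TGFB1, TGFBR2 and SMAD3 (minimum average log2 CPM 3), and overlapping genes. TGFB2 and TGFB3 were named after their values were seen, and a gene of the target list is not reported here. The procedure was tested on simulated counts with a common dispersion and far fewer changed genes than were called here. Scaling under changes as common as these was therefore not tested by it. Alternatives were DESeq2 1.42.0, other scalings, other filters, each sample left out, replicate blocks and a threshold of 0.01.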

Additional observations from a re-analysis of the deposited data

How the results depend on the processing

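The 8 genes other than SKI and SKIL kept their direction and stayed past the threshold under every scaling, filter, tool, replicate block and omission of a sample that was run. With a sample left out, between 8 and 10 of the 10 genes were called (5 to 6 higher, 3 to 4 lower). Of all genes between 10443 and 11300 were called, with 19579 to 19707 tested. DESeq2 called 9 of the 10 genes and 10176 of the 22122 genes it tested. An adjusted p under 0.01 in edgeR left 8 of the 10. All genes were not counted at that threshold, so these 8 cannot be set against a share of all genes. With the replicate block, 10 of the 10 genes and 10983 of all genes were called by edgeR. A block by the numbers in the sample titles gave 12099 of all genes. The titles are C1, C3 and C4 (scrambled) and N1, N2 and N3 (NFIC KD). C4 and N2 share no number with another sample, and that block put them together as the leftover samples. The numbers are not known to pair the samples. Deviations from the group means correlated at 0.06, -0.09 and -0.04 for equal replicate numbers. For equal title numbers they correlated at 0.06 and 0.15, and for the leftover C4 and N2 at 0.03. NFIC KD replicate 2 was closest to scrambled replicate 1. Upper-quartile scaling moved the median of all genes by -0.06 on the log2 scale and lowered the share of calls that were higher from 49.4% to 43.2%. Left-out samples moved the log2 ratio differences to between 0.02 and 0.16 for the receptors, -0.31 and -0.16 for SMAD3 over SMAD2, and -0.39 and -0.30 for SKIL over SKI. The 3 samples a group limit the precision of small changes such as those of SKI and SKIL.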
